A study of Arabidopsis thaliana with 74 samples.

Results

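The genes described here were switched between an inactive and an active state among 36 epiRILs of Arabidopsis thaliana and carried identifiers outside 6 ranges that take in the pericentromeres and the surroundings of the MS1 gene. The members were chosen by their epiRIL levels. A gene was taken when its identifier ended in 0 or 5 and its CPM (the read count divided by the library total and scaled to 1e6 counts) was at most 0.2 in at least 6 epiRILs and at least 2 in at least 6 epiRILs. Of 32833 genes in the count table, 115 had this pattern at any position and with any identifier, and 54 of them met the whole rule. The epiRIL values therefore chose the members and are given as a description. The values of the epiHybrids and of msCol were not used by the rule.

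epiHybrids are F1 plants from a cross of msCol as the mother with an epiRIL as the father (36 libraries). epiRILs are inbred Columbia lines that descend from a ddm1-2 mutant ancestor and keep a mosaic of demethylated chromosome stretches (36 libraries, the fathers of the epiHybrids). msCol is a male-sterile Columbia line carrying the ms1 allele in a segment introgressed from Ler (2 libraries, lines 12 and 16). According to the paper, the msCol plants grown for phenotyping were progeny of male-sterile plants pollinated by heterozygous siblings. Only a part of such progeny is expected to be male sterile. Every library was made from aerial rosettes 27 days after sowing under long days, pooled over 3 cultivation experiments, and each line gave 1 library. The epiHybrid and the epiRIL of 1 line number form a family, and families served as replicates. The paper selected these 36 families by leaf area, taking epiHybrids that diverged most above their parents, most below them or not at all. Totals lay between 38.1 and 42.2 M counts, at which 1 count was worth about 0.0245 CPM and 3 counts about 0.0735 CPM.

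DDM1 is a chromatin remodeller that is needed to keep transposons and related repeats methylated and silent. When DNA methylation is lost in a ddm1 mutant, many sequences become transcribed, and at a part of them the unmethylated, active state is passed on through later generations although DDM1 function has been restored. Such heritable alternatives of an otherwise identical sequence are known as epialleles. An F1 plant holds 1 allele from each parent, so the state of a gene in the F1 can be set beside the states of both parents.

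The label of chromosome arms held for most members only. In the TAIR10.1 assembly, 47 of the 54 genes lay outside the intervals spanned by the excluded identifiers and 7 lay inside them, since identifiers assigned late do not follow the order along the chromosome. The 7 were the long noncoding RNA genes AT3G05955, AT3G06465, AT5G03925 and AT5G04815 and the precursor genes of miR854a, miR854b and miR854c. The members comprised 44 protein-coding genes, 6 long noncoding RNA genes, 3 microRNA genes and 1 other noncoding RNA gene. Of the coding members, 20 were annotated as uncharacterized, hypothetical or unknown (45.5%), against 7.16% of 19036 coding genes that reached 1 CPM in at least 2 libraries. The median exonic length was 906 bases for members and 1733 bases for all 19383 genes that reached that level.

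The microRNA genes are shown by their mature products because all 3 encode the same molecule. MIR854b (AT5G04935), MIR854c (AT5G04985) and MIR854a (AT5G04995) lie on chromosome 5, and miR854 is a microRNA of transposon origin. The mature sequences below were read from TAIR10.1 with the annotation of RefSeq at chr5:11324568-11324588 (minus strand), chr5:11838098-11838118 (plus strand) and chr5:11847721-11847741 (plus strand). Capitals mark the seed, bases 2 to 8, which miR854d and miR854e, not members, share.
miR854b: gAUGAGGAuagggaggaggag
miR854c: gAUGAGGAuagggaggaggag
miR854a: gAUGAGGAuagggaggaggag
Each precursor overlapped another annotated gene, and 12 or 13 transcripts elsewhere matched it at 95% identity or more over at least 100 bases. Reads of these genes could not be assigned to a single copy with certainty. Over all members, 17 had such a near copy elsewhere and 10 overlapped another annotated gene, and whether strand was used in counting is not stated, so their counts are uncertain. The remaining 31 members had neither.

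DNA methylation at CG dinucleotides is the form most faithfully copied at cell division, and the 250 bases before the annotated start of the gene are therefore shown for 4 members. HISN6B (AT1G71920) encodes a histidine biosynthesis enzyme and was the only member of a list of 22 measured loci known for epigenetic control. AT2G15710 (TRAF-like family) and AT2G17920 (zinc ion binding) had the same state in every father. ATA27 (AT1G75940), a glycosyl hydrolase of the anther, is an example of a member that did not pass the test of epiHybrid level by father state. Capitals mark CG on the strand of the gene, and the windows are chr1:27066698-27066947, chr2:6842398-6842647, chr2:7782462-7782711 and chr1:28510892-28511141 of TAIR10.1, all on the plus strand.
HISN6B: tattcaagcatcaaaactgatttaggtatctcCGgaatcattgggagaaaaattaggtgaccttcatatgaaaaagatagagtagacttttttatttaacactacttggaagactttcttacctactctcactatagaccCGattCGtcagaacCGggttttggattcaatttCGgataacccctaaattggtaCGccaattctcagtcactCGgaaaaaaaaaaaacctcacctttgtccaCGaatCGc
AT2G15710: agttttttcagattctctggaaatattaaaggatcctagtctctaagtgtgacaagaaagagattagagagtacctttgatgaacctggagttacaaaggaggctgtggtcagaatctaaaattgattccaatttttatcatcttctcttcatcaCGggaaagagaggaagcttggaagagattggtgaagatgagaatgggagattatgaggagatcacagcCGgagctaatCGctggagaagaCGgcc
AT2G17920: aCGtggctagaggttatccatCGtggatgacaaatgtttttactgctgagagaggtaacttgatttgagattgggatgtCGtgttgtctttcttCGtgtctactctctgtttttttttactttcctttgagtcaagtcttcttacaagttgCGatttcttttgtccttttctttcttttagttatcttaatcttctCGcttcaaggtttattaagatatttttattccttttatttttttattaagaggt
ATA27: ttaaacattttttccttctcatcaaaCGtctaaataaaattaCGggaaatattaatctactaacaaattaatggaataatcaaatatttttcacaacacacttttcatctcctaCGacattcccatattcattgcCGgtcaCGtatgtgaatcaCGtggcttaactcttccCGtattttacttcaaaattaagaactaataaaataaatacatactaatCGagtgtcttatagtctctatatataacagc
These windows held 9, 4, 6 and 8 CG. Over the 54 members the median was 6.5 CG per window, and 2 windows had none. Over the 19382 genes that reached 1 CPM in 2 libraries and had a full window, the median was 5 and 704 windows had none. At least 10 CG stood in 15 of the 54 windows of members (27.8%) and in 14.2% of the windows of all genes at that level. No methylation values were analysed here, and the windows describe sequence only.

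How many members were active differed widely between lines. epiHybrids had 6 to 26 members at 1 CPM or more (median 17), and their fathers had 5 to 26 members on (median 13.5). On means at least 2 CPM and off at most 0.2 CPM in a father, while an epiHybrid counts as on from 1 CPM, the limit of the fathers scaled to 1 allele. The limits of the rule were close to the values of some genes. AT5G26270 and AT1G75945 were just inside the off limit, with a sixth-lowest father at 0.194 and 0.196 CPM, and AT4G03875 and AT1G23935 were just outside it at 0.204 and 0.222 CPM. At the on limit, AT4G03570 and AT1G27565 were just inside with a sixth-highest father at 2.19 and 2.24 CPM, and AT1G47660 and AT3G06095 just outside at 1.80 and 1.87 CPM.

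Of the 54 members, 45 were off in both msCol libraries, 29 of them with no count in either. Only AT1G75945 was on in both, and 8 members were neither. Before the members are compared, the families whose libraries stood apart are named. The states of the members in an epiHybrid matched those of its own father at least as well as those of any other father in 34 of 36 families. In family 158 the match was 78.0% with the own father and 84.9% with the closest other father. In family 275 it was 90.6% with the own father and 93.6% with the closest other father. All departures of family 275 were in ATA27, AT1G20130, AT1G67990, AT1G68875 and AT3G51590. These genes, described further on, were off in that father and on in its epiHybrid. In family 579 the match was 76.6% with the own father, equal to the best other father. Over all families the match with the own father had a median of 95.7%.

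**Figure D1:**
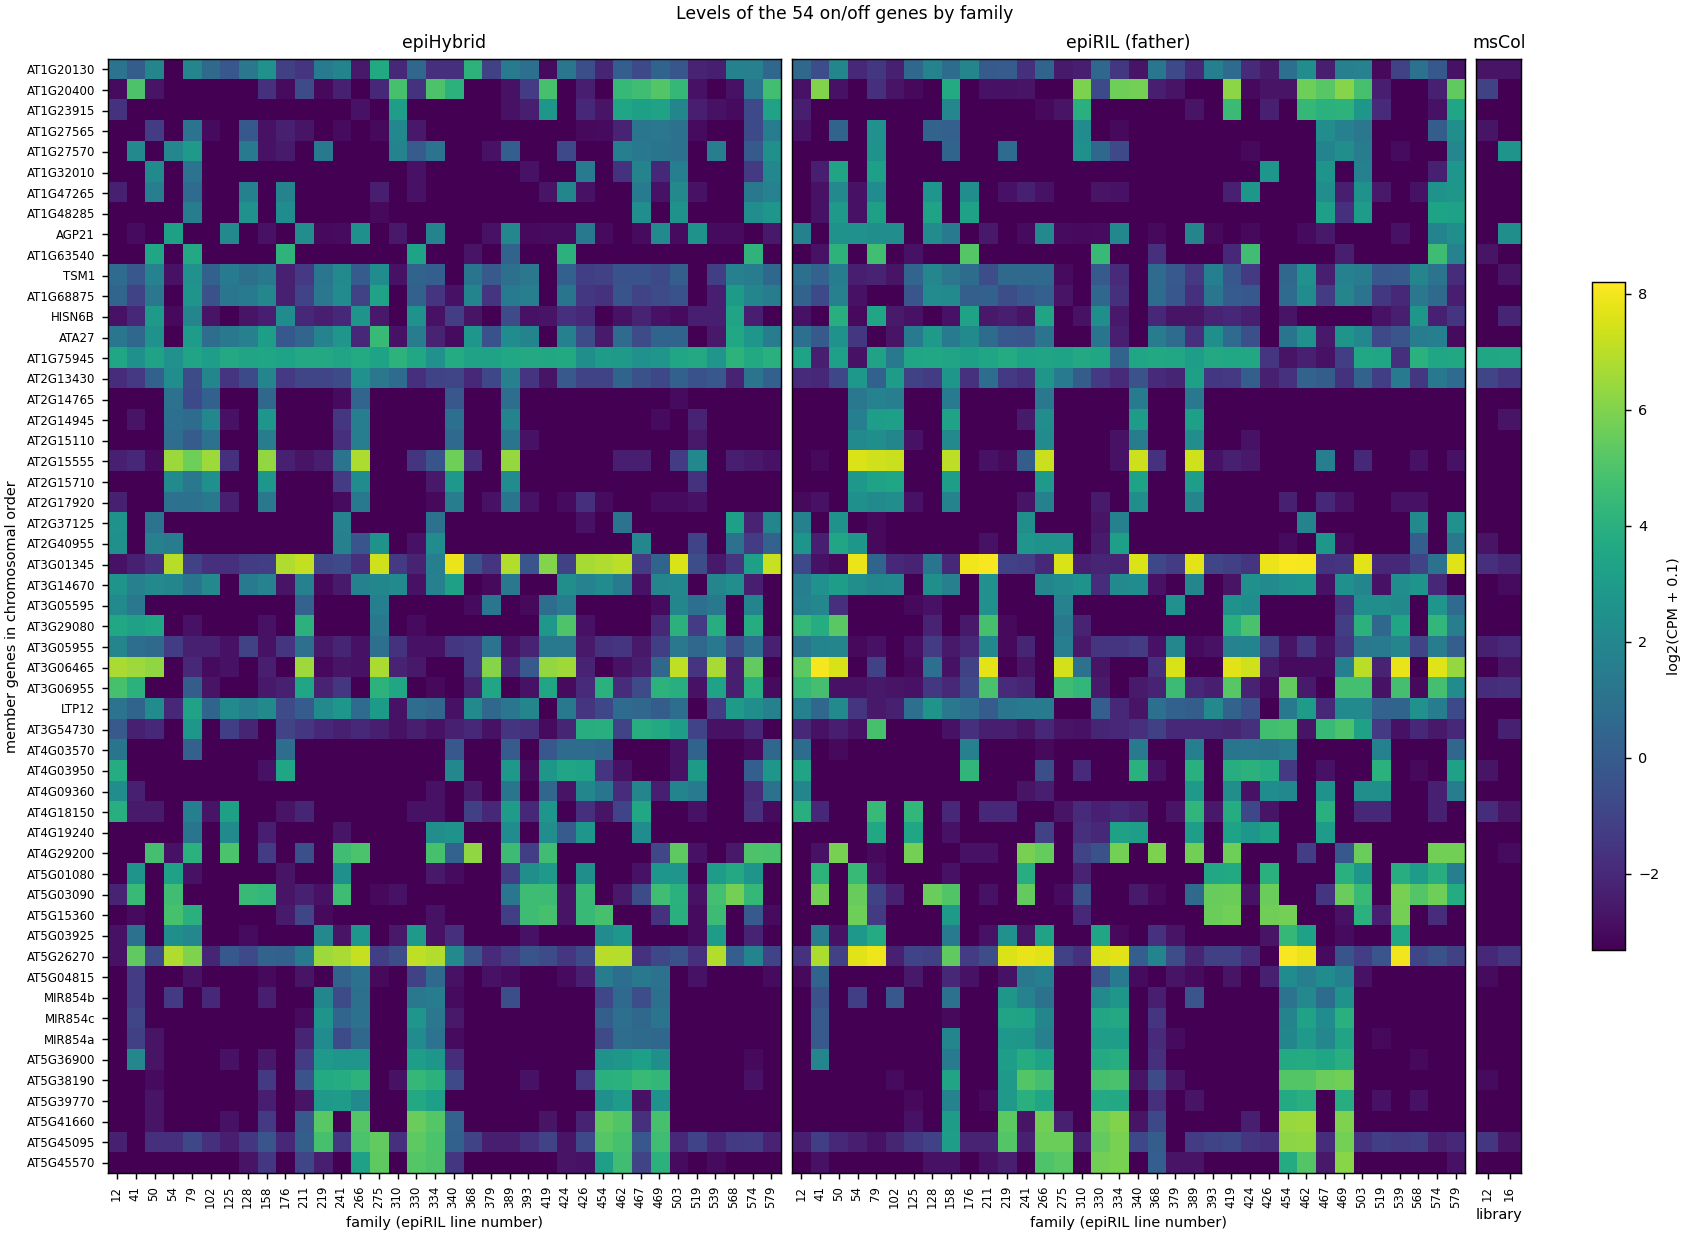
Level of each of the 54 on/off genes (rows, in chromosomal order) in 36 epiHybrids, in their 36 epiRIL fathers and in 2 msCol libraries, as log2(CPM + 0.1). The bright cells of the epiHybrid panel stand largely in the families whose father is bright in the middle panel, and msCol is dark for most rows. AT1G75945 is bright in both msCol libraries and in 27 fathers.

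The central comparison asked whether an epiHybrid expressed a member according to the state of its father. It did for 48 of the 54 members, and in each of the 48 the epiHybrids with an on father were higher than those with an off father (adjusted p between 4.59e-08 and 0.000874, exact rank-sum permutation test, two-sided, BH over 115 genes). The background was 92.2% of the 115 on/off genes at any position, and 58 of the 61 on/off genes that are not members passed as well, so the share among members was near that of on/off genes in general. In 28 members the epiHybrids of on and of off fathers did not overlap at all, against 55.7% of the 115 genes. The median difference was 5.24 on the log2(CPM + 0.1) scale over the 54 members and 5.38 over the 61 others. When all 19383 genes were tested with the fathers split at the median father, 38 of the members passed, against a background of 2.01% of all genes passing in the same direction and 0.00516% in the other. The median difference of that split was 4.04 for members and 0.09 for all genes. Where fewer than 18 fathers are on, off lines enter the upper side of this split only if they lie above the median father. In AT2G14765 and AT2G15710 every off father was at 0 CPM, so the split was the same as that by on and off state. HISN6B, AT2G15555 and AT4G29200 were among the members that missed the threshold with the median split.

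Among the 45 members off in msCol, the epiHybrid was on in 373 of 412 gene and family pairs with an on father (90.5%). It was on in 27 of 1071 pairs with an off father (2.52%), and in 983 of these it was at or below 0.2 CPM. Of the 27, 21 belonged to 5 genes that did not pass the test and are described further on. In the 40 genes of this class that passed, 332 of 359 pairs with an on father and 6 of 1023 pairs with an off father had an epiHybrid at 1 CPM or more. Pairs of the same gene or the same family are not independent of each other, and no test was put on these counts.

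AT3G14670, an uncharacterized protein gene, was the member off in msCol with the lowest p. epiHybrids of its 23 on fathers had 2.15 to 9.13 CPM (median 3.72), against 0.0243 CPM at the median and 0.0971 CPM at most with its 13 off fathers. The groups were fully apart, with a difference of 4.94 on the log2(CPM + 0.1) scale and an adjusted p of 4.59e-08 by the exact permutation test. With groups fully apart, p is set by the numbers of on and off fathers and by ties. The order of members by p is therefore not an order by size of the difference. Both msCol libraries were off, at 0 and 0.0258 CPM.

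AT3G05595, a noncoding RNA gene, came next. epiHybrids of its 11 on fathers had 1.14 to 4.47 CPM (median 2.46), and those of its 24 off fathers had 0.0257 CPM at most. No msCol library had a count, and the adjusted p was 4.59e-08 by the exact permutation test.

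AT4G29200, annotated as related to beta-galactosidase, reached far higher levels. With 11 on fathers its epiHybrids had 23.5 to 79.1 CPM (median 29.6), against a median of 0 CPM with 21 off fathers. The highest epiHybrid with an off father was that of family 79, at 16.6 CPM with a father at 0.0243 CPM, and this library stood apart from all the others of its group. The difference was 8.22 on the log2(CPM + 0.1) scale (adjusted p = 8.73e-08, exact permutation test). The other member of this annotation, AT5G01080, was at a median of 6.24 CPM in epiHybrids of 12 on fathers and at 0.345 CPM at most with 24 off fathers.

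The remaining members among the 10 with the lowest p in this class showed the same order of the groups. They were AT5G36900, AT2G40955 and AT1G47265 (uncharacterized), AT5G39770 (annotated as a type II restriction endonuclease-like protein), AT4G09360 (an NB-ARC protein, the domain of intracellular immune receptors), AT4G19240 (uncharacterized) and AT4G03950 (a nucleotide-sugar transporter family protein). Their epiHybrids had a median between 2.59 CPM (AT4G09360) and 7.71 CPM (AT4G03950) with an on father. With an off father all 7 had a median of 0 CPM, and their adjusted p lay between 8.51e-08 and 9.19e-08 (exact permutation test). AT5G36900 was the 1 gene of the 7 in which the groups overlapped, at 0.0727 CPM in the lowest epiHybrid of an on father and 0.303 CPM in the highest of an off father.

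HISN6B encodes a histidinol-phosphate aminotransferase and has a near-identical copy, HISN6A (AT5G10330), at 99.5% identity over 1105 bases. epiHybrids of its 6 on fathers had 3.65, 6.13 and 10.4 CPM (lowest, median and highest), against 0.0515 CPM at the median and 0.542 CPM at most with 29 off fathers. The groups did not overlap (adjusted p = 1.77e-06, exact permutation test). HISN6A had a median of 9.55 CPM in epiHybrids where HISN6B was on in the father and 10.5 CPM where it was off. msCol had 0 and 0.129 CPM of HISN6B. Of the 21 other loci of the list, 5 were off in every father, among them FWA, a homeobox gene silenced in vegetative tissue, and SDC, an F-box gene. A further 9 were on in every father, among them the immune receptor gene SNC1, and 7 were neither.

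Among members off in msCol, the highest epiHybrid medians with an on father were those of a pair of noncoding RNA genes. AT3G06465, a noncoding RNA gene, had a median of 91.0 CPM in epiHybrids of 13 on fathers and 0.0513 CPM with 19 off fathers. AT2G15555, also noncoding, had a median of 80.8 CPM with 8 on fathers and 0.0501 CPM with 26 off fathers. Per kilobase of exon, the median level in epiHybrids of on fathers was 180 CPM for AT3G06465, 75.3 CPM for AT2G15555 and 1.01 CPM for AT4G09360. The Ulp1 protease family gene AT5G45570, of a family often carried by transposons, had 9.06 to 40.6 CPM in epiHybrids of 7 on fathers (median 25.1) and 0.429 CPM at most with 28 off fathers.

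**Figure D2:**
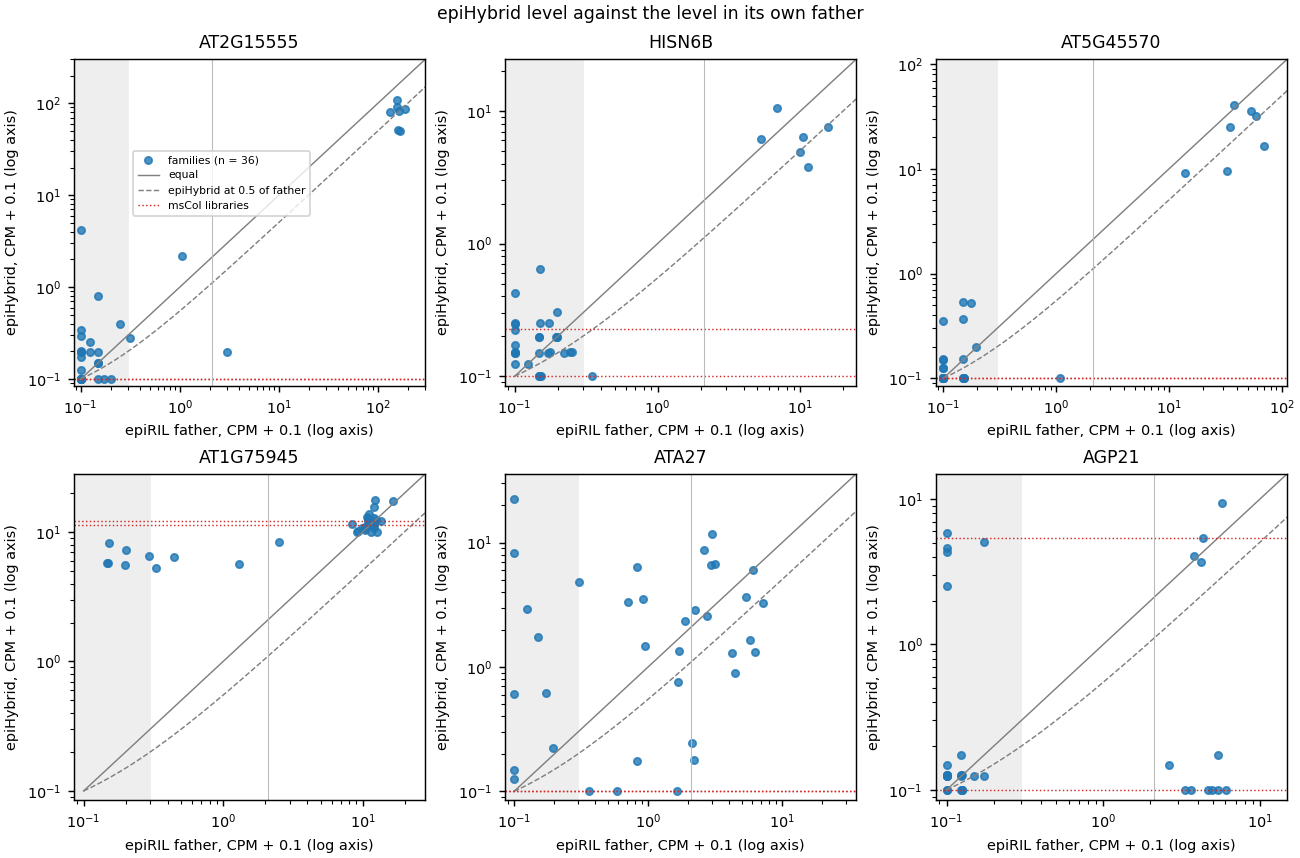
epiHybrid level against the level in its own father for 6 members (36 families each, CPM + 0.1, both axes logarithmic), with off fathers in the grey band and on fathers right of the thin vertical line. For AT2G15555, HISN6B and AT5G45570 most points lie near 0 or near the dashed line of 0.5 of the father, with exceptions such as family 519 in AT2G15555 (4.09 CPM) and a ratio of 1.55 in HISN6B, AT1G75945 stays at or above 5.16 CPM whatever the father, and ATA27 and AGP21 do not follow the father.

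The microRNA precursors also differed with the state of the father. MIR854c had 1.02 to 6.38 CPM in epiHybrids of 9 on fathers (median 1.93), against 0.0748 CPM at most with 25 off fathers. MIR854b had a median of 1.83 CPM with 7 on fathers and 0.0249 CPM at most with 22 off fathers. MIR854a had a median of 1.41 CPM with 10 on fathers, was at 0 CPM in the epiHybrid of family 158 although that father was on, and had 0.126 CPM at most with 25 off fathers. None of the 3 had a count in msCol, and their adjusted p were 9.19e-08, 1.05e-06 and 8.04e-07 (exact permutation test).

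How far the epiHybrid level lay below that of an on father was expressed as a ratio. Over the 45 members off in msCol the median ratio of epiHybrid to on father was 0.526, taken first over families within a gene and then over genes (quartiles 0.490 and 0.614). An equal contribution of a silent maternal and an active paternal allele would give 0.5. AT2G15555 had a median of 80.8 CPM in epiHybrids and 158 CPM in on fathers, with a median ratio of 0.481. AT5G41660, uncharacterized, had 35.2 CPM in epiHybrids and 58.6 CPM in on fathers, with a median ratio of 0.520. Since the father values chose the members, these ratios are a description.

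Of the 47 members that passed the test and were not on in msCol, 33 had a median ratio between 0.4 and 0.6, 11 were above 0.6 and 3 below 0.4. The 3 low ones were the microRNA precursors MIR854a (0.228), MIR854c (0.289) and MIR854b (0.344), whose reads could not be assigned to a single copy with certainty. The highest was AT3G14670 (0.749), followed by AT3G29080 (0.692), an uncharacterized protein gene. The spread over families differed between genes, with ratios from 0 to 0.683 for MIR854a, from 0.426 to 2.03 for AT3G14670 and from 0.492 to 0.644 for AT5G04815.

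**Figure D3:**
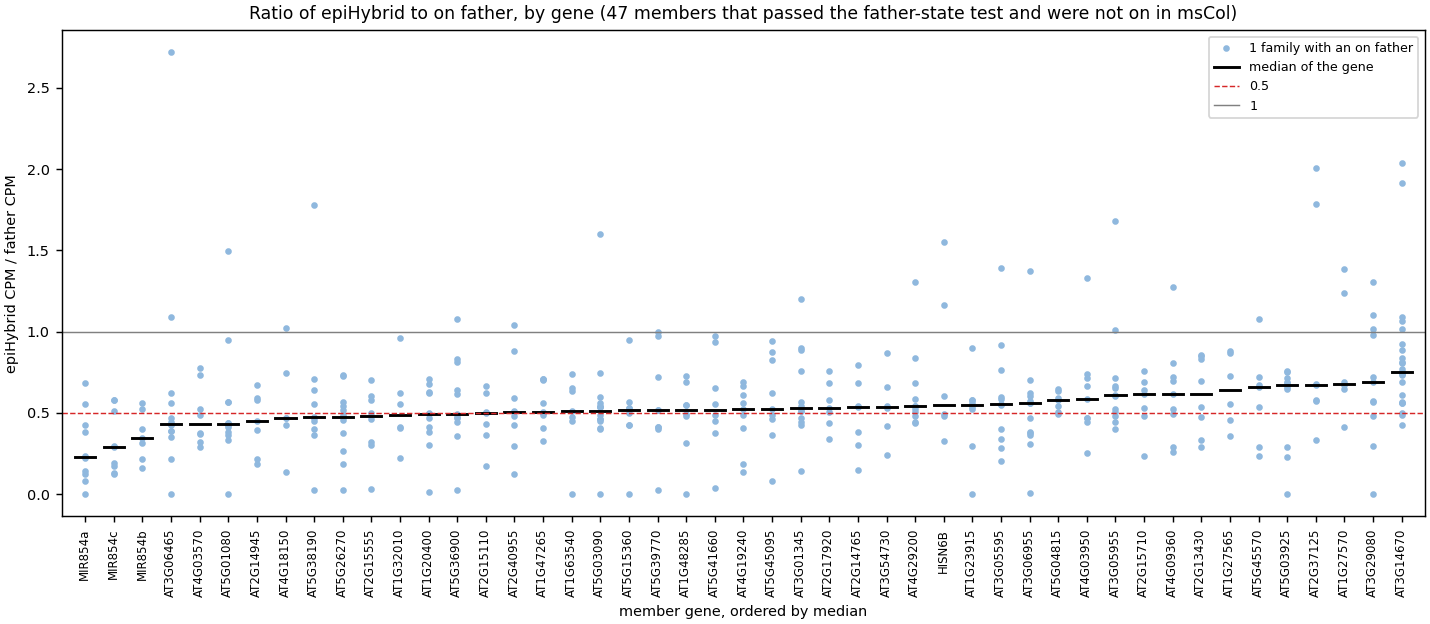
Ratio of epiHybrid CPM to father CPM in each family with an on father (points) and its median (bars) for the 47 members that passed the father-state test and were not on in msCol. The medians run from 0.228 in MIR854a to 0.749 in AT3G14670, and 33 of them lie between 0.4 and 0.6.

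The medians of families ranged more widely than those of genes. The median ratio of a family over the members its father had on was 0.512 at the middle of the 36 families, with quartiles of 0.466 and 0.615. It was 1.55 in family 568 (5 members) and 1.37 in family 12 (11 members). In family 568 the epiHybrid was at 199% and its father at 72.9% of the median of the other families with an on father. In family 12 these figures were 185% and 68.3%. The lowest ratio was 0.0595 in family 158 (20 members), and the next was 0.292 in family 79 (19 members), its epiHybrid at 57.4% and its father at 115% of the others. Whether plants, libraries or labels differed in these families was not tested.

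**Figure D4:**
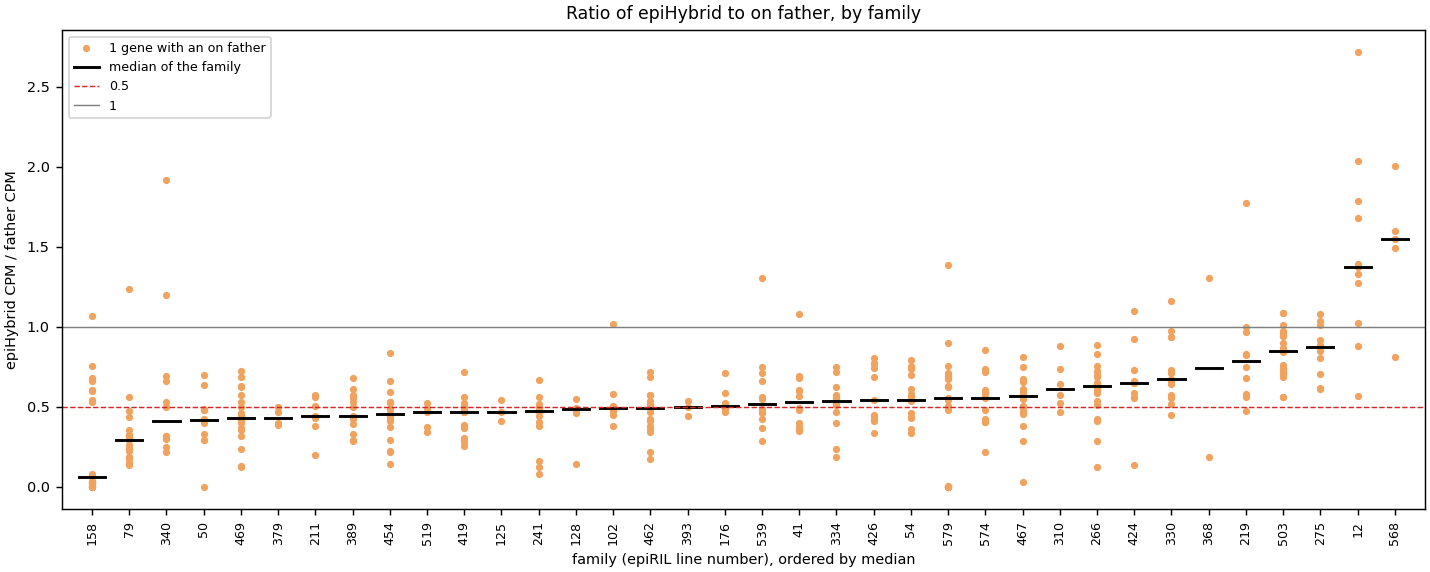
Ratio of epiHybrid CPM to father CPM for each passed member with an on father (points) and its median (bars) in 36 families ordered by the median. Most medians lie near 0.5, families 158 (0.0595) and 79 (0.292) are lowest, and families 12 (1.37) and 568 (1.55) are highest.

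An epiHybrid stayed below 1 CPM although its father was on in 33 pairs of the 47 members, and 16 of these belonged to families 158 and 579. In the 33 pairs the father itself had a median of 30.4% of the level of the other on fathers of the same gene, and 20 of the 33 were under 50%. In the 398 pairs with an epiHybrid at 1 CPM or more the father had a median of 102%, and 24 of them were under 50%. The low father levels were largely those of families 158 and 579, which held 15 of the 20. In the other 17 pairs the father had a median of 77.04% and reached 132%, and 5 were under 50%. The epiHybrid was at 0.2 CPM or less in 15 of the 33 pairs.

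In family 158 the departures were mostly on chromosome 5. For 10 members the epiHybrid was below 1 CPM while the father was on, at 12.99% to 53.7% of the other on fathers. AT1G20400 and AT1G23915 are on chromosome 1, and the other 8 were on chromosome 5 from AT5G15360 to AT5G45095. AT5G26270 lies in the same stretch and was on in this father. Its epiHybrid was at 1 CPM or more, but at a ratio to the father of only 0.0275. That was near the ratio of AT5G38190 in this family (0.0276). AT5G41660 had 0.291 CPM in this epiHybrid and 8.24 CPM in its father, and AT5G38190, a myosin heavy chain-like protein gene, had 0.291 CPM and 10.5 CPM. On chromosome 2 the same epiHybrid followed its father, with 79.8 CPM of AT2G15555 in the epiHybrid and 132 CPM in the father.

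In family 579 the epiHybrid was below 1 CPM for 6 members with an on father, whose levels were 13.6% to 46.2% of the other on fathers. They were AT1G63540, AT3G29080, AT3G06465, AT3G06955, AT5G01080 and AT5G03090. AT3G06465 had 0 CPM in the epiHybrid and 83.6 CPM in the father. Other members of the same family followed, as AT3G01345 did with 150 CPM in the epiHybrid and 198 CPM in the father.

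The opposite departure was rarer. In 14 pairs of the 47 members the epiHybrid was at 1 CPM or more with an off father, and 5 of these concerned AT1G27570, an annotated phosphatidylinositol kinase family gene. Its epiHybrids had 2.62 to 4.24 CPM in families 41, 54, 128, 462 and 539, where the father had at most 0.0244 CPM. With 6 on fathers its epiHybrids had 1.92 to 7.11 CPM. The msCol libraries differed, with 0 CPM in msCol 12 and 6.21 CPM in msCol 16. Which msCol line was the mother of each family is not given in the sample labels. The difference by father state was 4.92 on the log2(CPM + 0.1) scale (adjusted p = 0.000874, exact permutation test). Its neighbour AT1G27565, uncharacterized, did not overlap between the groups, at 1.94 to 4.0 CPM with 6 on fathers and 0.123 CPM at most with 26 off fathers (adjusted p = 1.61e-06, exact permutation test).

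AT1G75945, an uncharacterized protein gene, was the 1 member on in msCol, at 11.3 and 12.0 CPM. epiHybrids of its 27 on fathers had 8.30 to 17.6 CPM (median 11.5), against 5.44 to 8.10 CPM (median 6.01) with its 6 off fathers. The groups did not overlap, and the difference of 0.92 on the log2(CPM + 0.1) scale passed the test (adjusted p = 2.36e-06, exact permutation test). epiHybrids of off fathers were at 0.516 of the msCol mean, and no epiHybrid was off. Since all of them were above 1 CPM, Fisher's exact test of the on and off states could not detect this difference.

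Among the 8 members that were neither on nor off in msCol, 7 passed the test. AT1G20400 (unknown function) had 0.361 and 0 CPM in msCol, a median of 26.3 CPM in epiHybrids of 11 on fathers and 0.0246 CPM with 24 off fathers (adjusted p = 9.19e-08, exact permutation test). AT3G06955, a noncoding RNA gene, had a median of 15.2 CPM with 13 on fathers and 0.049 CPM with 21 off fathers. AT5G45095 and AT3G01345, both uncharacterized, had medians of 30.3 and 130 CPM with an on father and 0.199 and 0.203 CPM with an off father. AT5G26270 and AT2G13430 also passed, at adjusted p of 8.39e-05 and 0.000736 (exact permutation test). In these 6 genes msCol was at 0.439 CPM or less.

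AGP21 (AT1G55330), an arabinogalactan protein of the cell wall, was the exception in this group. Its values fell into an active and an inactive state in all 3 kinds of plant, and its epiHybrid level was not found to differ with the state of the father (adjusted p = 0.927, exact permutation test). In 9 epiHybrids it was at 2.41 to 9.33 CPM and in the other 27 at 0.0744 CPM at most. Of the 9, 4 had an on father and 5 an off father, while 8 on fathers had an off epiHybrid. msCol 12 had 0 CPM and msCol 16 had 5.31 CPM, and the labels do not say which of them was the mother of each family. AGP21 shares 364 bases with the overlapping gene AT1G55335, so that reads of both cannot be told apart without strand.

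The other 5 members that did not pass were all off in msCol. ATA27, TSM1 (AT1G67990, a tapetum methyltransferase), LTP12 (AT3G51590, a lipid transfer protein of the tapetum), AT1G20130 (a GDSL-type lipase) and AT1G68875 (uncharacterized) had adjusted p between 0.111 and 0.243 (exact permutation test). The tapetum is the cell layer of the anther that feeds developing pollen. ATA27 had 0.0781 to 11.5 CPM in epiHybrids of 15 on fathers (median 2.79) and up to 22.4 CPM with 9 off fathers (median 0.516). That highest value was in family 275, where the father had 0 CPM, and the same epiHybrid had 12.9 CPM of AT1G20130, 9.85 CPM of AT1G68875, 7.71 CPM of LTP12 and 4.82 CPM of TSM1. Without families 79, 158 and 579, AT1G68875 and LTP12 passed the test (adjusted p = 0.0301 and 0.0313, exact permutation test).

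These 5 genes, on chromosomes 1 and 3, were often high in the same libraries. All 5 were at 1 CPM or more in 16 epiHybrids and in 13 fathers, and at 0.2 CPM or less in 5 epiHybrids, in 5 fathers and in both msCol libraries. In 7 families both the epiHybrid and the father had all 5 genes up, in 9 families the epiHybrid alone and in 6 the father alone. The sum of 4 flower markers (AP1, AP3, AG and SEP3) was 12.96 to 26.0 CPM in the 16 epiHybrids (median 16.9) and 9.53 to 13.01 CPM in the 5 (median 12.0). In fathers it was 11.6 to 27.0 CPM (median 17.3) in the 13 and 7.46 to 14.5 CPM (median 10.1) in the 5. msCol had 10.4 and 18.5 CPM of the same sum with all 5 genes at 0.0516 CPM or less. The parts of flower tissue and of the male sterility of msCol in these values were not tested. The share of male-sterile plants in the msCol libraries is not given in the labels.

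**Figure D5:**
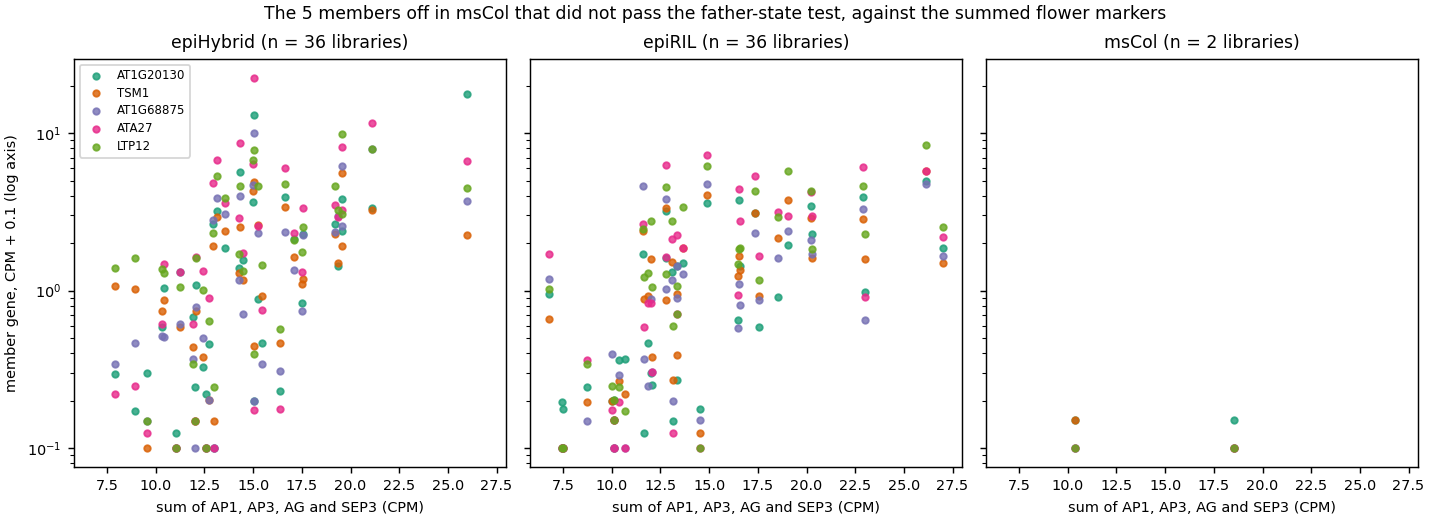
Level (CPM + 0.1, logarithmic axis) of AT1G20130, TSM1, AT1G68875, ATA27 and LTP12 against the sum of 4 flower markers in each epiHybrid, epiRIL and msCol library. All 5 genes are at 0.0516 CPM or less in both msCol libraries, at marker sums of 10.4 and 18.5 CPM.

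Members close to each other on a chromosome tended to be on in the same fathers. Among members that passed, the 32 pairs within 1 Mb had the same state in a median of 97.1% of the fathers in which both were on or off, and 11 pairs never differed. For pairs on different chromosomes the median was 58.8% and no pair was alike in all. The epiRIL states chose the members, so these shares are a description.

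A block of members was seen on chromosome 2. AT2G14765, AT2G14945, AT2G15110, AT2G15710 and AT2G17920 lay within 1.43 Mb (TAIR10.1 chr2:6351289-7784287) and were all on in 7 fathers and all off in the other 29. The 7 were lines 54, 79, 102, 158, 266, 340 and 389. The member AT2G15555 lies in the same stretch and was left out of the block, which was put together after the values were seen. It was on in the same 7 fathers and in line 467, and between the limits in 2 fathers. Its epiHybrid had 0.0983 CPM in family 467 and 4.09 CPM in family 519, where the father had 0 CPM. For the 5 genes of the block the epiHybrids had the same division, with all 5 genes at 1 CPM or more in 5 of the 7 and none at that level in the epiHybrids of the 29 off fathers. The epiHybrid of family 79 missed 1 CPM for AT2G14765 (0.494 CPM) and AT2G15110 (0.914 CPM), and that of family 340 for AT2G14765 (0.773 CPM). All 5 genes had an adjusted p of 2.87e-07 (exact permutation test).

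A block on chromosome 5 was less uniform. AT5G36900, AT5G38190, AT5G39770 and AT5G41660 lay within 2.11 Mb (TAIR10.1 chr5:14546924-16658405) and were all on in 8 fathers, none on in 25 and mixed in 3. Of the 8 epiHybrids of fully on fathers, 7 had all 4 genes at 1 CPM or more, and the remaining one was that of family 158. MIR854b, MIR854c and MIR854a lay within chr5:11324370-11847939, and MIR854a had the same state as AT5G36900 in all 35 fathers that could be compared.

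The epiHybrids were also compared with msCol as a group. No member passed in either direction (edgeR quasi-likelihood test, 36 epiHybrids against 2 msCol libraries), against a background of 0.282% of 19131 genes higher and 0.659% lower in epiHybrids. At an unadjusted p under 0.05 in the same test there were 6 of the 54 members, against 2000 of all 19131 genes, a similar share. The 6 were AT1G20130, TSM1, AT1G68875, ATA27, LTP12 and AT3G14670. The fitted log2 fold change was positive for 51 of the 54 members. With the Wald test of DESeq2, 28 members were called, all higher in epiHybrids, against a background of 1.1% of genes higher. The call of a member as different from msCol thus depended on the tool.

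Set against their own fathers, 5 members were lower in epiHybrids and none higher (edgeR with family as a block), against a background of 0.94% of 19361 genes lower and 0.372% higher. They were MIR854a (log2 fold change -1.92, SE 0.395, adjusted p = 0.012), MIR854c (-1.73, SE 0.290, adjusted p = 0.00246), MIR854b (-1.37, SE 0.256, adjusted p = 0.00543), AT4G19240 (-1.23, SE 0.289, adjusted p = 0.0412) and AT1G47265 (-0.89, SE 0.225, adjusted p = 0.0419). The MIR854 precursors lie inside an excluded interval by coordinates. Their reads could not be assigned to a single copy with certainty, so their calls may not be separate results. The median log2 fold change was -0.65 over the 54 members and 0.00 over all genes. Without the block no member was called. DESeq2 with the block called AT1G47265 and AT5G04815 lower and AT1G75945 higher, so that 4 of the 5 calls were lost, and its median over the members was -0.10. The father values enter this contrast and the rule alike, so it is read as a description.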

How the data were processed

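The authors deposited raw read counts per gene for 74 libraries. Reads had been trimmed with Trim Galore, aligned to TAIR10 with TopHat2 and counted with featureCounts; versions, strand and the treatment of reads with several matches are not given in the sources used here. No library had a count for any of 285 organellar genes. CPM was computed from column totals. Members and gene lists were chosen with earlier results of these data known. epiHybrid CPM was compared between families with an on and an off father by an exact rank-sum permutation test (midranks, two-sided), with BH adjustment over all 115 on/off genes and 0.05 as the threshold. Group contrasts used the quasi-likelihood test of edgeR 4.0.16 in R 4.3.3 (TMM, genes reaching 1 CPM in 2 or more libraries), with DESeq2 1.42.0 as an alternative. The numbers pair the libraries by parentage: deviations of an epiHybrid and its own father correlated at a mean of 0.424 ± 0.278 over genes (SD, n = 36) and above 0.1 in 30 families, so family entered as a block. Tests were checked on simulated data. In the check of edgeR a changed gene shifted alike in every epiHybrid, so genes that are on in a part of the families were not covered. Coordinates, exons and sequences come from TAIR10.1 with RefSeq annotation, which matched 32548 gene identifiers; the deposited table holds no coordinates.

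Within the classes off, on and neither in msCol, the text names up to 10, 6 and 4 members with the lowest p (the class on held 1 member), the 3 with the highest p, members with a symbol, runs of members with no more than 5 kept genes between them, members at the limits of the rule and known epigenetically controlled loci. Genes in the chromosome 2 and 5 blocks and the remaining named members were chosen after their values were seen. Replicates are lines, and p-values of the father-state test and of the contrast with fathers measure the spread between families. In the contrast with msCol, that side had only 2 libraries, from plants that the paper describes as siblings. Counting error alone understates technical error because reads carried no molecular identifiers. The leaf markers summed to at least 30204 CPM and the seed markers to 0.603 CPM at most in every library.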

Additional observations from a re-analysis of the deposited data

How the results depend on the processing

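The number of members was 84 with an on limit of 1 CPM, 33 with 5 CPM and 34 with 8 fathers in each state, and between 42 and 79 under the other limits, TMM and the sets of families tried. The 48 members that differed with the state of the father were 47 by Fisher's exact test (AT1G75945 missed) and 38 with fathers split at the median over all genes, all of them among the 48. They were 48 with TMM and without families 340 and 368, and 50 without families 79, 158 and 579, a choice made after seeing the data. No direction of a called member reversed in these tests. The share of epiHybrids on with an on father, for members off in msCol, was 74.8% with 2 CPM as the epiHybrid limit, and between 90.5% and 93.3% under the others. The median ratio to the on father lay between 0.502 and 0.542. Against msCol, DESeq2 called 28 members, while edgeR called 0 to 0 without either msCol library and 0 with all 74 libraries, without a filter, with DESeq2 size factors and without either set of families. Against the fathers, the fit with no replicate block called 0 members and DESeq2 with the block 3 (2 lower, 1 higher, and 1 of the 5 edgeR calls among them), while the other blocked fits called 5 or 6. The cause of these differences between fits was not tested. At this depth 1 count was worth about 0.0245 CPM, and a count of 0 does not exclude a level of up to 0.0735 CPM.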
